A study of Mus musculus with 2 samples.

Results

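The 10 genes described here are immediate early genes, chosen by name from the 24014 gene symbols of the deposited tables: the early growth response factors Egr1, Egr2 and Egr3, the AP-1 subunits Fos, Fosb, Jun and Junb, and Ier2, Nr4a1 and Atf3. They were chosen because the Egr genes were lower in basophils and plasma cells of the HFD library below, so their values in those cells are a description. All 10 had UMIs (unique molecular identifiers, each counted as 1 captured mRNA molecule) in both libraries. Bone marrow of male wild type mice, with the strain given as C57B/6, was captured on the BD Rhapsody single-cell system after 16 weeks on normal chow (ND) or on a diet with 60% fat (HFD). There was 1 library per diet and no test is possible: differences have no replicate check, and all intervals below cover counting error only. How many mice a library came from, and whether they were pooled, is not in the labels, which mention no sorting of the cells either.

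Immediate early genes are transcribed within minutes of a signal from existing factors, before any new protein is made. Receptor signals run through the MAP kinases to serum response factor, its Elk partners and CREB at the promoters of Egr and Fos genes, and their protein products then bind GC-rich Egr sites or, as Fos-Jun dimers, AP-1 sites in later target genes. Nab proteins restrain the Egr factors, and phosphatases of the Dusp family switch the kinases off. The same genes are known to rise in many cell types while tissue is taken apart for single-cell work, as heat shock genes do.

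Upstream sequences of 3 members with contrasting ratios are shown for the motif letters they hold: Egr2, which was lower in basophil/mast-like and plasma-like cells, and Fos and Jun, which differed less there. Printed are the 250 bases before the transcript start, 5′ to 3′ on the gene's strand, from RefSeq on GRCm38.p6. The Egr2 stretch is chr10:67537619-67537868 on the plus strand, that of Fos is chr12:85473640-85473889 on the plus strand, and that of Jun is chr4:95052223-95052472 on the minus strand. Capitals mark the matches to a motif on either strand, and each stretch ends at the base before 1 annotated transcript start. Egr2 has earlier starts too, so its stretch lies upstream of a later start only.
Egr2: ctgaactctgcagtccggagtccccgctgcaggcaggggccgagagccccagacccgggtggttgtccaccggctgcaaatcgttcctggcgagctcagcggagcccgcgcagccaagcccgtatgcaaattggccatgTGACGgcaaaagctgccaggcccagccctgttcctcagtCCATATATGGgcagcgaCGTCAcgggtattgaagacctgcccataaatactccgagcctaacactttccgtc
Fos: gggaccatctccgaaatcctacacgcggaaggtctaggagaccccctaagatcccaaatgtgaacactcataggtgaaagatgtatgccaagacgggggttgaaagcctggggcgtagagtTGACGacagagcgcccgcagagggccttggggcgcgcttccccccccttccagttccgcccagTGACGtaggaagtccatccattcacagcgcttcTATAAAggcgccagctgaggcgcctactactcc
Jun: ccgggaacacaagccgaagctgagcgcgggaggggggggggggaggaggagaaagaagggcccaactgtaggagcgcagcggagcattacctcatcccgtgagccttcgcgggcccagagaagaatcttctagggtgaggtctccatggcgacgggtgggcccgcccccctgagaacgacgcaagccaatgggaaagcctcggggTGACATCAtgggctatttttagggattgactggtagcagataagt

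The capitals in Egr2 are a CArG box, the core of the serum response element, at bases -72 to -63 before the start, and TGACG at -111 to -107 and, on the other strand, at -55 to -51. In Fos they are TGACG at -129 to -125 and at -66 to -62 and the TATAAA at -33 to -28, which was searched on the gene's strand only. In Jun they are TGACATCA at -45 to -38. Of the 10 genes, 7 had a window of 250 bases before and 50 after the start, with 11 windows in all, and Egr1, Egr3 and Ier2 had none. A CArG box was found in 4 of these windows, all of Egr2, but 3 of them overlap and hold the same site, so there are 2 distinct sites. Of the 32851 windows of all genes, 1.63% held one. The other letters searched were TGACGTCA, which contains TGACG (1.79% of all windows), the AP-1 site TGACTCA or TGAGTCA (5.20%), and the Egr site GCGTGGGCG or GCGGGGGCG (3.47%). TATAAA was in 8.32% of windows, TGACATCA in 3.62% and TGACG in 20.8%. The Egr site letters occurred in 1 window of Fosb, at -50 to -42, and 1 of Nr4a1, at -60 to -52. A match describes letters and does not show that a factor binds there. Bases further upstream were not searched, so a window without a match does not show that the gene lacks the motif.

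The tables held 16817 cells (ND) and 17282 cells (HFD), with 117999042 and 117773643 UMIs and a median of 3644 and 3626 UMIs per cell. After filtering, 13890 and 15214 cells remained, and 329 cell indices occurred in both tables. Clusters were named from marker genes only, so each class is called "-like". 18 classes had at least 100 cells in each library, giving 180 pairs of a gene and a class. Levels are CPM, a gene's UMIs per 1000000 UMIs summed over the class, and ratios are HFD over ND on the log2 scale. A pair was called higher or lower when the levels differed by at least 1.5-fold (0.58 on the log2 scale) with at least 50 UMIs over both libraries. 131 of the 180 pairs had that many UMIs, of which 15 were higher and 14 lower. Of all genes of a class, between 1.41% and 6.09% were higher and between 1.26% and 8.09% lower. Over all genes, the median ratio of a class lay between -0.05 (plasma-like) and 0.05 (T-like). Shares of cells with a transcript were taken after thinning each cell to 1000 UMIs, so that depth did not set them.

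**Figure D1:**
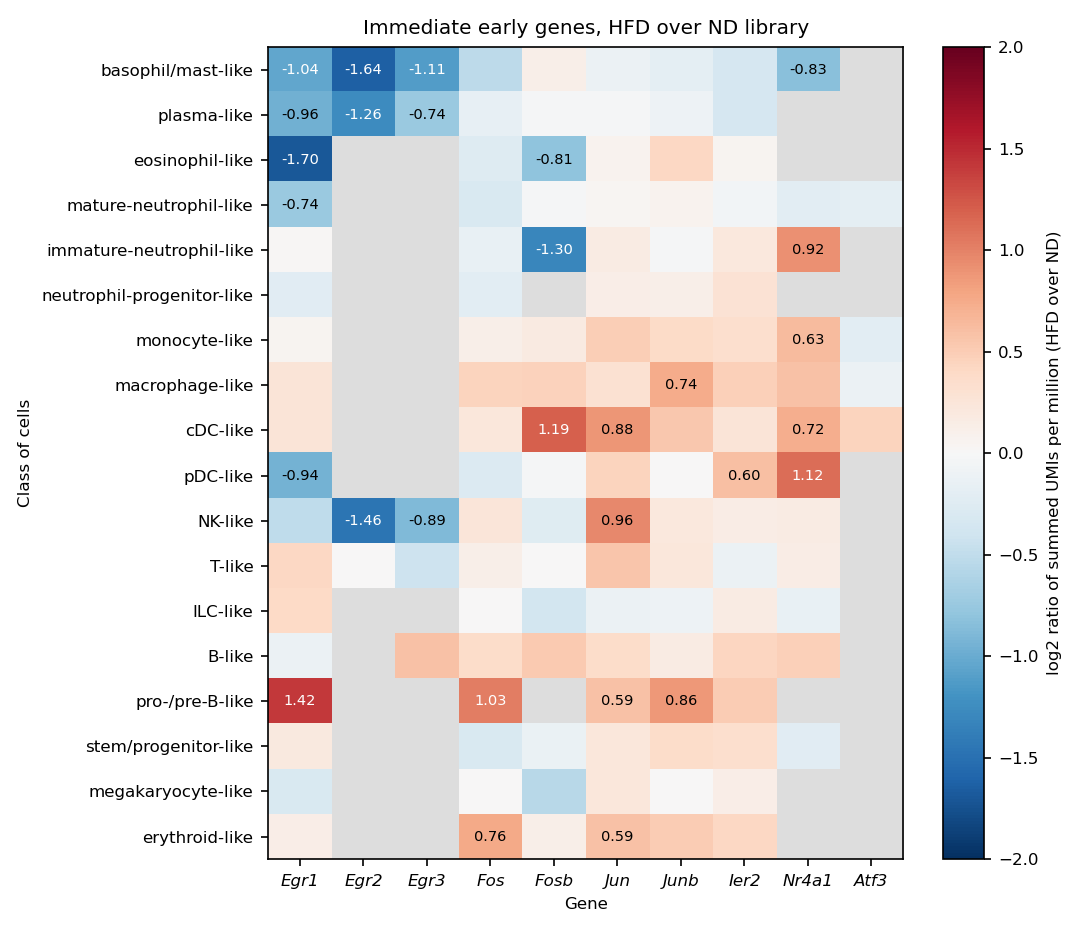
Log2 ratio of CPM, HFD over ND, for the 10 genes (columns) in 18 classes (lines of the grid). Grey marks pairs under 50 UMIs over both libraries and printed values are those at least 1.5-fold apart. Blue cells of Egr1, Egr2 and Egr3 sit at the top, in basophil/mast-like and plasma-like cells, while Jun is red in most classes.

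Egr1, Egr2 and Egr3, zinc finger factors, were the members that differed most in basophil/mast-like cells, which are granulocytes of the IgE response. These numbered 1484 cells in the ND library and 1449 in the HFD library, and their median depth was 4058 and 4132 UMIs. Egr1 had 19108 UMIs in ND cells and 8989 in HFD cells, that is 2178 (2148 to 2209.6) and 1061 (1039 to 1083) CPM. The level was thus lower in the HFD library by 2.05-fold, a log2 ratio of -1.04. Egr2 had 435 and 135 UMIs, 49.6 and 15.9 CPM, a log2 ratio of -1.64 (-1.93 to -1.36). Egr3 had 185 and 83 UMIs, 21.1 and 9.79 CPM, a log2 ratio of -1.11 (-1.50 to -0.73). Nr4a1, an orphan nuclear receptor, stood at 59 and 32 UMIs there, 6.73 and 3.78 CPM, a log2 ratio of -0.83 (-1.50 to -0.19). These 4 were the members at least 1.5-fold lower, of 9 with enough UMIs, beside 1.65% of all 9905 genes in this class, and no member was higher, beside 1.71% of all genes. As these ratios chose the set, nothing is read from that count. In the order of all 9905 genes by ratio, 6 genes were lower than Egr2, 14 lower than Egr3 and 17 lower than Egr1.

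The AP-1 genes moved less in the same cells. Fos had 6539 and 4388 UMIs, 746 and 518 CPM, a log2 ratio of -0.53 (-0.58 to -0.47), just inside the 1.5-fold limit. Jun, the main partner of Fos, was at 3819 and 3521 CPM, a log2 ratio of -0.12 (-0.14 to -0.09). Fosb, a further Fos subunit, was at 289 and 313 CPM, a log2 ratio of 0.11. Junb, a partner that weakens Jun at many targets, was at 1044 and 907 CPM, a log2 ratio of -0.20. Ier2, a nuclear protein of unclear biochemical function, was at 958 and 761 CPM, a log2 ratio of -0.33. Atf3, a stress-induced partner of Jun, had only 9 and 6 UMIs, too few to compare. So the ratio of HFD over ND lay between -0.53 and 0.11 for these AP-1 genes and Ier2, and at -1.04 or below for the 3 Egr genes. In the order of all 9905 genes by ratio, 225 were lower than Fos and 616 lower than Ier2. For Junb, Jun and Fosb, 1346, 2393 and 7302 genes were lower.

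The share of cells with a transcript changed along with the level. Of basophil/mast-like cells thinned to 1000 UMIs each, leaving out 12 ND and 25 HFD cells that were too shallow, 66.4% (63.9 to 68.8) of ND cells and 46.5% (43.9 to 49.1) of HFD cells kept an Egr1 UMI. The unthinned shares were 77.2% and 62.5%. The lowest Egr1 share was in neutrophil-progenitor-like cells. There 0.424% of ND cells and 0 of 497 HFD cells, which allows up to 0.739% (exact 95% bound), kept an Egr1 UMI after thinning. Unthinned shares there were 4.87% and 2.81%, at a median depth of 21642 and 22280.0 UMIs. As that class is much deeper, it does not give the level of free RNA, which was not measured. Egr2 was kept by 4.89% and 1.33% of the basophil/mast-like cells and Egr3 by 2.11% and 0.843%. For the AP-1 genes the thinned shares were 29.9% and 27.5% for Fos, 18.3% and 22.7% for Fosb, 84.2% and 84% for Jun and 60.3% and 56.5% for Junb. Ier2 was kept by 59.9% and 51.7%.

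The Egr1 difference ran through the whole distribution of cells rather than a few extreme ones. At full depth the lower quartile, median and upper quartile of the cells were 184, 2000.5 and 4304 CPM in the ND library and 0, 543 and 2064 CPM in the HFD library. Cells without an Egr1 UMI made up 22.8% and 37.5%. At the other end, cells over 8000 CPM made up 8.36% of ND and 1.52% of HFD cells. The median for Jun was 3849 and 3398 CPM, and its bins kept nearly the same shape. Egr2 and Egr3 were found in fewer cells, 12.2% (ND) and 4.21% (HFD) for Egr2 and 5.73% and 3.17% for Egr3 without thinning. The highest cell held 15 UMIs of Egr2 in ND and 10 in HFD, and 6 and 12 of Egr3, and the counting intervals treat such UMIs of 1 cell as independent. Pairs of members were found in the same cells somewhat more often than the product of their shares gives. The product was taken over the whole class and not within its clusters, so differences in level between clusters also enter it. Among thinned ND cells, 364 had both Egr1 and Fos where the product of the 2 shares gives 292, a ratio of 1.25, and 1.33 in HFD cells. The ratio was 1.4 and 1.7 for Egr1 with Egr2, 1.95 and 2.49 for Egr2 with Fos, 1.94 and 1.79 for Fos with Fosb, and 1.07 and 1.09 for Egr1 with Jun. The ratio cannot exceed the inverse of the commoner gene's share, so pairs with Egr1 or Jun, which most ND cells held, can reach only low values and the pairs are not ranked.

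**Figure D2:**
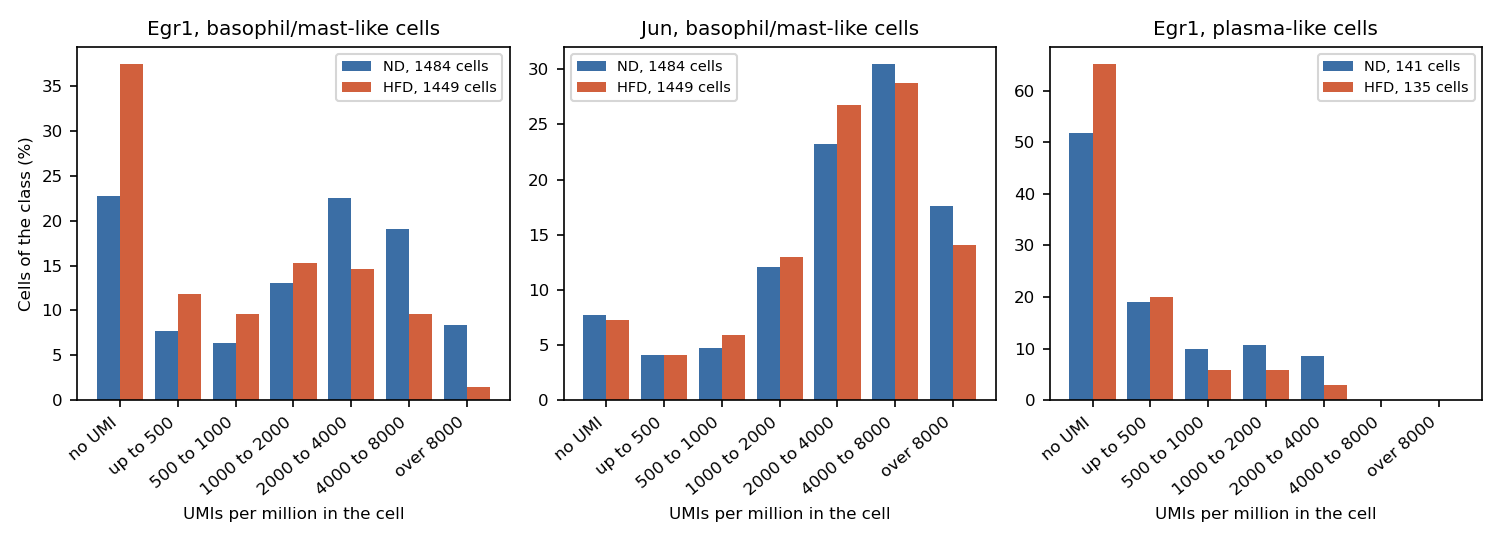
Share of cells (%) in bins of the cell's CPM, ND blue and HFD orange, for Egr1 and Jun in basophil/mast-like cells and Egr1 in plasma-like cells. For Egr1 the HFD bars are taller at no UMI (37.5% against 22.8% in basophil/mast-like cells). Over 8000 the HFD bar is shorter in basophil/mast-like cells, and no plasma-like cell of either library lies there. The Jun bars of both libraries are close.

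The difference was present in both parts of the class. 2 clusters held it, one led by the proteases Mcpt8 and Prss34 (550 ND and 564 HFD cells) and one by the chemokines Ccl3 and Ccl4 (934 and 885 cells). The log2 ratio of Egr1 was -0.94 in the protease-rich and -1.09 in the chemokine-rich cluster. For Egr2 the ratios were -1.25 and -2.10, for Egr3 -1.11 and -1.07. Fos was at -0.26 in the protease-rich and -0.80 in the chemokine-rich cluster, where it was past 1.5-fold, and Jun was at -0.02 and -0.19. Whether the 2 clusters differ was not tested. With a finer clustering (resolution 2.0) the cells of the class fell mainly into 4 clusters. A further cluster that this resolution named basophil/mast-like held mostly cells of the stem/progenitor-like class and is given under Other observations. Egr1 was lower in all 4: 1221 and 606 CPM, 1738 and 881 CPM, 4162 and 2140.0 CPM, and 2793 and 1089 CPM, log2 ratios of -1.01, -0.98, -0.96 and -1.36. Egr2 was lower in all 4 as well, from -1.09 to -2.30. Egr3 was uneven, with 24 and 27 UMIs (0.31), 63 and 13 (-2.45), 33 and 28 (-0.18), and 60 and 15 (-1.87). Fos ran from -0.29 to -0.82 and Jun from -0.29 to 0.04.

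**Figure D3:**
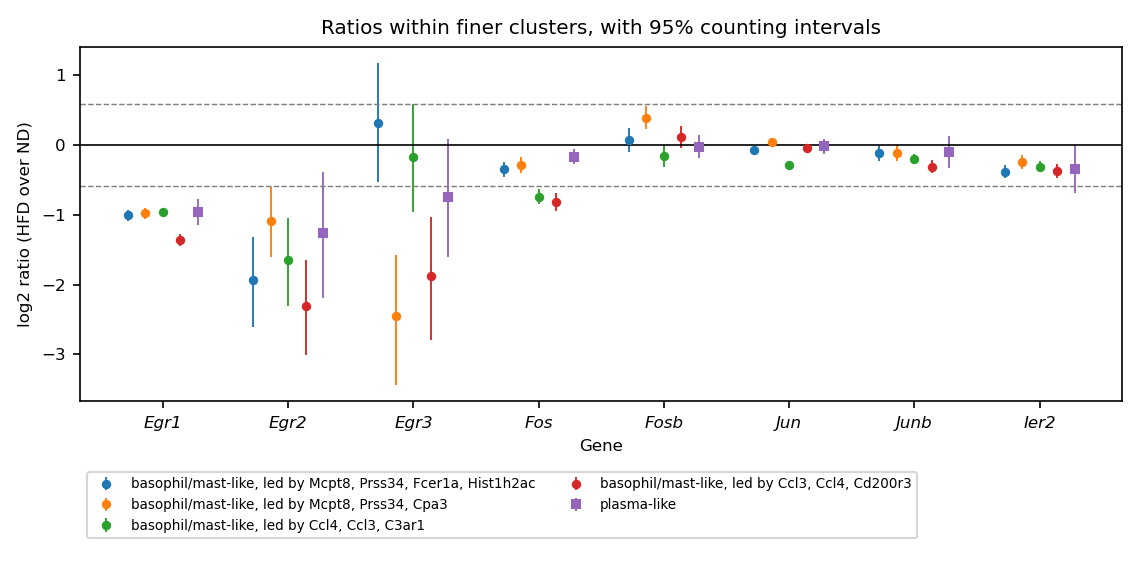
Log2 ratio of HFD over ND with 95% counting intervals for 8 genes in the 4 finer basophil/mast-like clusters (circles) and in plasma-like cells (squares). The dashed lines stand at 1.5-fold in either direction. Egr1 sits between -0.96 and -1.36 in the basophil/mast-like clusters, Egr3 spreads from -2.45 to 0.31, and Jun lies close to 0.

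The markers that define these cells were close in the 2 libraries. Mcpt8, a basophil protease, was at 23414 and 24848 CPM (log2 ratio 0.09), Prss34 was at 0.15, Ccl3 at 0.02 and Ccl4 at 0.01. The 18 markers of the class summed to 78976 and 84746 CPM, with Mcpt4 at 0 in both. Transcripts of other cells moved as well: the 16 markers of B cells summed to 213 and 88.3 CPM (-1.27) and Ighm was at 159.8 and 34.6 CPM (-2.21), while the neutrophil transcripts S100a8 (0.67), S100a9 (0.63) and Retnlg (1.65) were higher. Without the 10 ND and 11 HFD cells in which transcripts of another lineage reached 0.5% of UMIs, Ighm was at 0.14 and Egr1, Egr2 and Egr3 stood at -1.04, -1.63 and -1.11. Heat shock genes also differed: Hspa1a, an inducible chaperone, had 4 and 169 UMIs (5.45) and Hspa1b 20 and 271 (3.81). Whether these have a part in the Egr difference was not tested.

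Other genes of the pathway were mostly inside 1.5-fold in basophil/mast-like cells. So were all genes of the class, of which 1.71% were higher and 1.65% lower. Of the upstream inputs (serum response factor and its cofactors, Elk factors, CREB and MAP kinases), all 24 had enough UMIs, none passed and the median ratio was -0.03, beside 0.01 for all genes of the class. Serum response factor itself, Srf, was at 0.51. Among other immediate early genes, 29 of 34 had enough UMIs and none passed, with a median of -0.02. Of the phosphatases and feedback inhibitors, 8 of 14 had enough UMIs, and the 1 that passed was Dusp5, a nuclear phosphatase of ERK. Dusp5 was at 283 and 162 CPM, with 2483 and 1372 UMIs, a log2 ratio of -0.81 (-0.90 to -0.71). Dusp6, its cytoplasmic relative, was at -0.06. Of 9 Egr corepressors and inhibitory AP-1 partners, 7 had enough UMIs and Maff passed, with 48 and 29 UMIs (-0.68), and the median was 0.05. Nab2, an Egr corepressor that Egr1 itself induces, was at 0.30. The remaining Egr, Fos, Jun and Nr4a genes had 3 of 6 with enough UMIs and none passed (median 0.13), with Jund at 2306 and 2264 CPM. Of NF-kB feedback genes 15 of 16 had enough UMIs, 1 passed, Relb, with 42 and 26 UMIs (-0.64), and the median was -0.16. Of heat shock genes 13 of 14 had enough UMIs, 2 were higher and none lower, with a median of 0.19.

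Plasma-like cells, which secrete antibody, were the other class with all 3 Egr genes lower. 1 cluster held them, with 141 cells from the ND library and 135 from the HFD library, and their median depth was 11308 and 11053 UMIs. Egr1 had 790 and 389 UMIs, 510.1 and 263 CPM, a log2 ratio of -0.96 (-1.14 to -0.78). Egr2 had 40 and 16 UMIs, 25.8 and 10.8 CPM, a log2 ratio of -1.26 (-2.19 to -0.39). Thinning to 1000 UMIs left an Egr2 UMI in 3 ND cells and 0 HFD cells (2.13% and 0%). The thinned ratio of 0.06 came from raising the HFD count of 0 to 3 UMIs, so no direction can be read at that depth. Egr3 had 35 and 20 UMIs, 22.6 and 13.5 CPM, a log2 ratio of -0.74 with an interval of -1.61 to 0.09 that includes no change. These 3 were the members lower of 8 with enough UMIs, beside 8.09% of all 4909 genes in the class, and none was higher, beside 4.16%. In the order of all genes, 125 were lower than Egr1, 75 lower than Egr2 and 217 lower than Egr3, so the position was less extreme than in basophil/mast-like cells. Fos was at 987 and 876 CPM (-0.17), Fosb at 418 and 410.5 CPM (-0.03), Jun at 940.1 and 926 CPM (-0.02) and Junb at 223 and 207 CPM (-0.10). AP-1 genes were thus close in both libraries. Ier2 was at 109.8 and 86.4 CPM (-0.34), and Nr4a1 had 20 and 5 UMIs, under the minimum.

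Thinning to 1000 UMIs, 27% of ND and 14.8% of HFD plasma-like cells kept an Egr1 UMI, intervals of 19.8 to 35.1 and 9.29 to 21.9 that overlap. The shares were 42.6% and 44.4% for Fos and 45.4% and 40% for Jun. 51.8% of ND and 65.2% of HFD cells had no Egr1 UMI at full depth. Neutrophil transcripts moved with this class. Ngp, a granule protein, was at 1142 and 46.6 CPM (-4.62), Ltf at -5.56, Camp at -5.37 and Lcn2 at -3.20, and the 12 immature neutrophil markers summed to 2588 and 180.3 CPM. The plasma cell markers themselves summed to 119439 and 124592 CPM (0.06). 6 ND cells and 0 HFD cells held neutrophil transcripts at 0.5% or more of their UMIs. With the 7 ND cells that carried another lineage left out, Ngp was at 0.73 and Egr1 at 773 and 389 UMIs, a log2 ratio of -1.01 (-1.19 to -0.84), with Egr2 at -1.31 and Egr3 at -0.83. The 10 eosinophil markers summed to 2508 and 1170.0 CPM, and their part was not tested.

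In plasma-like cells the other immediate early genes had 21 of 34 with enough UMIs, and a median of 0.00 beside -0.05 for all genes. Klf4 (-0.84) and Klf6 (-0.67), Krüppel-like factors, were lower and none was higher. Of all genes of the class 8.09% were lower and 4.16% higher, which is the background for the counts in this paragraph. Of 4 phosphatases with enough UMIs, Dusp1, which acts on p38 and JNK, was higher at 103 and 203 CPM (0.98) and Dusp5 was lower at 31 and 18.9 CPM (-0.71). Of 16 inputs with enough UMIs, the kinases Mapk3 (-1.17) and Rps6ka3 (-0.69) were lower and Braf (0.62) was higher, each on fewer than 100 UMIs. Of 13 heat shock genes 4 were higher, among them Hspa1b, with 3 and 88 UMIs, and Hspa1a, with 3 and 61, and Hspd1 was lower (-0.74).

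**Figure D4:**
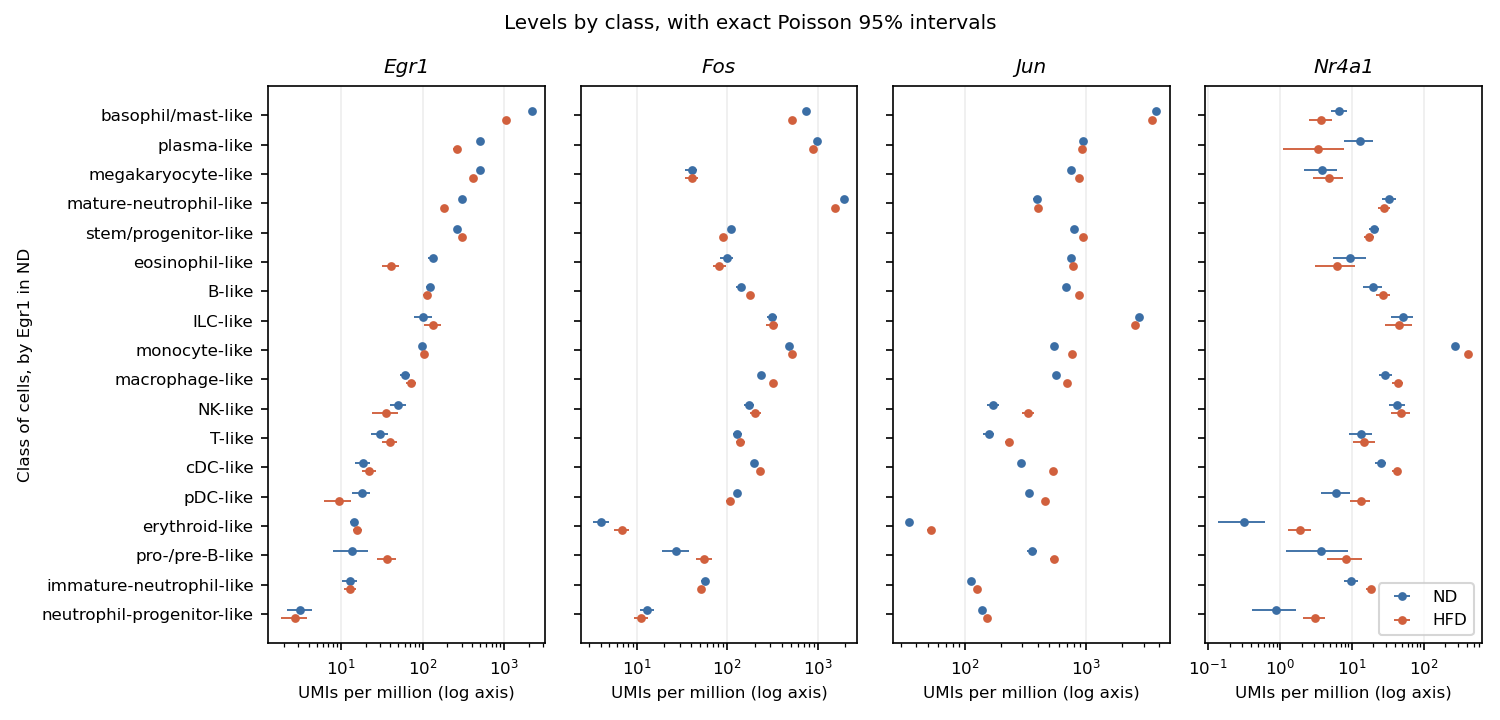
Levels of Egr1, Fos, Jun and Nr4a1 (CPM of the class, log axis) in 18 classes, ND blue and HFD orange, with exact Poisson 95% intervals. Egr1 is highest in basophil/mast-like cells (2178 and 1061), Fos in mature-neutrophil-like cells (1923 and 1555), and Nr4a1 in monocyte-like cells (272 and 422).

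Across classes each gene had its own order of levels. Egr1 was highest in basophil/mast-like cells in both libraries, which held 69.6% of all Egr1 UMIs among kept cells in ND and 53% in HFD. Next in the ND library came plasma-like cells at 510.1 CPM and megakaryocyte-like cells at 504 CPM, whose intervals overlap, then mature-neutrophil-like cells at 307 CPM and stem/progenitor-like cells at 265 CPM. In the HFD library megakaryocyte-like cells at 411 CPM, stem/progenitor-like cells at 304 CPM and plasma-like cells at 263 CPM followed, so plasma-like cells had moved down that order. In stem/progenitor-like cells Egr1 went the other way, at 265 and 304 CPM (0.20, from 0.12 to 0.28). That ratio mixes directions: a finer cluster with much of the class's Egr1 was lower, as given under Other observations. Leiden resolution 2.0 named that cluster basophil/mast-like. Egr2 in the HFD library was at 15.9 CPM in both T-like and basophil/mast-like cells. Egr3 was highest in NK-like cells in the ND library (54.9 CPM) and in B-like cells in the HFD library (67.4 CPM), and its ND levels in NK-like and B-like cells (45.2 CPM) had overlapping intervals.

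The AP-1 genes had other high classes. Fos was highest in mature-neutrophil-like cells, at 1923 and 1555 CPM, and next in plasma-like cells. Fosb was highest in plasma-like cells. Jun was highest in basophil/mast-like cells and next in innate-lymphoid-like cells, at 2762 and 2564 CPM. Junb was highest in innate-lymphoid-like cells at 1341 and 1251 CPM. Ier2 was highest in basophil/mast-like cells. Nr4a1 and Atf3 were genes of monocyte-like cells, which held 67.8% (ND) and 79.6% (HFD) of the Nr4a1 UMIs and 53.2% and 55.6% of the Atf3 UMIs.

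Over all 18 classes Egr1 was above 0 in 9 and below 0 in 9, with 1 higher and 5 lower. Egr2 was lower in 3 of the 4 classes with enough UMIs and Egr3 lower in 3 of 5, with none higher. Jun was above 0 in 15 of 18 classes with 4 higher and none lower and a median of 0.27. Junb was above 0 in 13 with 2 higher, and Ier2 in 14 with 1 higher. Nr4a1 was higher in 4 of 12 classes and lower in 1, with a median of 0.33. Fos was higher in 2 and lower in none. Egr ratios chose the set, so these counts are not set against each other, and the shares of all genes are given with each class. In 6 classes no member passed 1.5-fold in either direction. Of all genes, 2.40% were higher and 2.47% lower in B-like cells (median of 8 members 0.40), 4.04% and 2.45% in T-like cells (9 members, 0.11), and 5.86% and 4.48% in innate-lymphoid-like cells (7 members, -0.10). In stem/progenitor-like cells 1.48% and 2.27% of all genes were (7 members, 0.20), in neutrophil-progenitor-like cells 1.41% and 1.78% (5 members, 0.11), and in megakaryocyte-like cells 3.22% and 2.91% (6 members, 0.01).

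Eosinophil-like cells had the lowest Egr1 ratio. Egr1 there was at 133 and 41 CPM, with 222 and 73 UMIs, a log2 ratio of -1.70 (-2.10 to -1.31). The highest cell held 58 of these UMIs in the ND library and 28 in the HFD library. The interval treats UMIs of the same cell as independent, so it is too narrow for such counts. After thinning, 5% (2.76 to 8.25) of ND and 2.71% (1.25 to 5.08) of HFD cells kept an Egr1 UMI, and these intervals overlap. Both clusters of the class were low, at -1.65 and -1.85. Fosb was also lower (-0.81), so 2 of 6 members with enough UMIs were, beside 3.67% of all genes, and none was higher, beside 3.89%. Basophil transcripts moved with it, Prss34 from 1105 to 428 CPM (-1.37), Mcpt8 at -0.50 and Ccl3 at -3.66. Neutrophil transcripts moved the other way: 6 of 7 were higher, with a median of 1.84, among them S100a8 at 84.5 and 892 CPM (3.40) and S100a9 (1.62). Their part was not tested. Without the 61 ND and 99 HFD cells that carried another lineage's transcripts, of which 50 and 85 carried neutrophil transcripts, S100a8 was at 2.10, Prss34 was at 0.00 and Ccl3 at -1.86, while Egr1 was at 86.5 and 27.7 CPM, a log2 ratio of -1.64, and Fosb was at 0.27.

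Mature-neutrophil-like cells had lower Egr1 too, with 307 and 184 CPM, a log2 ratio of -0.74 (-0.89 to -0.59). It was the only one of 8 members with enough UMIs past 1.5-fold, beside 4.65% of all genes that were lower and 2.86% that were higher. The ratio was -1.93 in one cluster (111 and 44 UMIs) and -0.70 in the other (646 and 680 UMIs). After thinning, 17.9% of ND and 13.3% of HFD cells kept an Egr1 UMI. Ccl4 (-1.57) and Ccl3 (-0.69), chemokines that basophils also carry, were lower in this class and their part was not tested; without cells carrying another lineage's transcripts Egr1 was at -0.68.

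In NK-like cells, 415 in ND and 220 in HFD, Egr2 (43 and 9 UMIs, -1.46) and Egr3 (87 and 27 UMIs, -0.89) were lower, 2 of 9 members beside 3.97% of all genes. Jun was higher, at 172 and 335 CPM, a log2 ratio of 0.96 (0.72 to 1.21), 1 of 9 beside 6.09%. Dusp6 was lower (-0.82), as was the chemokine Ccl4 (-0.93), and Hspa1b was higher (3.38). Most of the ND UMIs of both genes came from few cells: without 15 ND and 11 HFD cells counted as carrying another lineage's transcripts, Egr2 had 10 and 7 UMIs (0.30) and Egr3 had 19 and 2 (-1.85). Both are then under the minimum of 50 UMIs, so both calls rest on those cells. Of the cells left out, 10 ND and 7 HFD cells met the limit for Mcpt8, Prss34, Ccl3 and Ccl4, taken as basophil transcripts. The limit cannot tell whether Ccl3 or Ccl4 in an NK-like cell came from another cell.

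Several members were higher in pro-/pre-B-like and conventional-dendritic-like cells. In pro-/pre-B-like cells, early B cell precursors (181 ND and 226 HFD cells), 4 of 5 members with enough UMIs were higher, beside 3.07% of all genes, and none lower, beside 3.08%. Egr1 had 18 and 61 UMIs (1.42), Fos 36 and 93 (1.03), Junb was at 0.86 and Jun at 361 and 545 CPM (0.59). The direction of 2 of these did not hold: Egr1 was at -0.30 with doublets kept, and Fos was at -0.32 with Leiden resolution 2.0. Of the other immediate early genes 2 of 23 with enough UMIs were higher: Myc, a growth regulator (0.95), and Cd69, a marker of activation (0.73). S100a8 was also higher (1.19) and its part was not tested. In conventional-dendritic-like cells, which present antigen, Fosb (20.1 and 45.8 CPM, 1.19), Jun (294 and 539.8 CPM, 0.88) and Nr4a1 (25.4 and 42 CPM, 0.72) were higher, 3 of 8 beside 3.36%, and none was lower, beside 185 of all 9257 genes. Egr1 was at 18.7 and 22.2 CPM (0.25) in these cells. Jund (0.69), Dusp1 (0.76) and Rgs1, a brake on chemokine receptors (1.97), were higher with them, and so were Hspa1a (3.70), Hspa1b (3.23), Ccl3 (1.17) and S100a8 (1.44). The part of these heat shock and neutrophil transcripts was not tested.

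Other calls were single. In monocyte-like cells Nr4a1, which non-classical monocytes need, was at 272 and 422 CPM, a log2 ratio of 0.63, the 1 of 8 members that was higher, beside 3.01% of all genes, with none lower, beside 1.86%. Its 3 clusters were at -0.48, 0.34 and 0.11, each inside 1.5-fold. The cluster with the highest Nr4a1, at 1201 and 1294 CPM, made up 43.3% of the class in the ND library and 57% in the HFD library. In macrophage-like cells Junb was higher (75 and 126 CPM, 0.74), 1 of 8 beside 4.17% (lower 0, beside 2.62%), and stood at 0.47 and 0.46 within its 2 clusters. In erythroid-like cells Fos (4.05 and 6.86 CPM, 0.76) and Jun (34.9 and 52.7 CPM, 0.59) were higher, 2 of 6 beside 2.80%, with none lower, beside 1.26%. Thinning put Fos at -0.12. All 7 neutrophil transcripts were higher in these cells, with a median of 1.51 and S100a8 at 31.1 and 97.4 CPM, and their part was not tested. In immature-neutrophil-like cells Nr4a1 was higher (9.77 and 18.5 CPM, 0.92), 1 of 7 beside 2.07%, and Fosb lower (6.09 and 2.48 CPM, -1.30), 1 of 7 beside 2.31%. In plasmacytoid-dendritic-like cells Ier2 (29.2 and 44.2 CPM, 0.60) and Nr4a1 (21 and 40 UMIs, 1.12) were higher, 2 of 7 beside 2.49%. Egr1 was lower there (61 and 28 UMIs, -0.94), 1 of 7 beside 2.55%, in cells where the globin Hba-a1 was also lower (-4.60). Over 11 alternatives this Egr1 ratio ran from -1.30 to -0.04 and was inside 1.5-fold in 6, which ends the call. The 1.5-fold limit is sharp: Jun in erythroid-like and pro-/pre-B-like cells, at 0.59, lay just inside the call, and Egr3 in B-like cells (108 and 201 UMIs, 0.58) and Nr4a1 in macrophage-like cells (0.58) lay just outside.

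Genes with a like pattern of levels were named by Pearson correlation of log2(CPM + 10) over the 36 pairs of class and library, among 11035 genes with at least 500 UMIs. For Egr1 these were Jun (0.75), St8sia6 (0.75), Ifitm1 (0.73), Csrp3 (0.71) and Gm17590 (0.71). For Fos they included Zfp36 (0.87), Dusp1 (0.85), Ier5 (0.82) and Klf6 (0.81). By the ratio of HFD over ND over 18 classes, among 3082 genes, Mif4gd (0.82), Mapk1ip1l (0.76), Pabpc1 (0.74), Kdm5a (0.74) and Kansl1 (0.74) were nearest to Egr1. The points share libraries, depth and, for the levels, the same cell classes, so these values are descriptions. Among the members themselves Fos and Junb had 0.81, Egr2 and Egr3 0.76, and Nr4a1 and Atf3 0.74. Jun has an antisense gene, Junos, in the annotation, and the use of strand in counting is not given in the sources used here. Whether reads of the pair were kept apart is therefore not known, and Jun UMIs may include reads of Junos.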

How the data were processed

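The deposited tables hold counts: whole-number UMIs per gene and cell, which, per the file headers, the authors made by error-correcting molecules in version 1.9.1 of the BD WTA Rhapsody Analysis Pipeline. The reference build is not given in the sources used here. Cells entered with 200 or more genes and a mitochondrial share up to 25%, and Scrublet doublets (expected rate 5%), computed within each library, were removed: 412 in the ND and 436 in the HFD library. The 2 libraries were clustered jointly (scanpy 1.11.5 with igraph 0.11.9, sklearn 1.9.0, scipy 1.17.1 and numpy 2.4.6 in Python 3.11.15) on 2000 variable genes that left out the 10 members, with 30 principal components, 15 neighbours and Leiden resolution 1.0, which gave 33 clusters. 1 cluster stayed unnamed. UMIs were summed per class and library. Log2 ratios carry exact conditional binomial 95% intervals, levels exact Poisson intervals and shares Clopper-Pearson intervals. In ratios and their intervals, counts under 3 UMIs were raised to 3. The ratio code was tested on simulated data. UMIs of 1 cell are not independent, so intervals cover counting error only.

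The members and lists were chosen with earlier results of these data known. Named genes are the members, up to 4 genes of each list with the largest ratio past 1.5-fold in basophil/mast-like and plasma-like cells and wherever at least 3 members passed, and the 5 nearest in pattern to Egr1 and Fos, of which 1 is not reported here. A few other list and marker genes were named after their values were seen. Alternatives changed the cell filter, doublets, clustering, scaling, thinning and call limits. Transcripts of another lineage were Ngp, Camp, Ltf and Lcn2 for neutrophils and Mcpt8, Prss34, Ccl3 and Ccl4 for basophils. Igkc and Jchain stood for immunoglobulin, and Hba-a1, Hba-a2, Hbb-bs and Hbb-bt for globin. A class was not filtered on its own set. Sequences came from RefSeq windows of GRCm38.p6, which may not be the build of the counts.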

Additional observations from a re-analysis of the deposited data

Results flagged for a closer look

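Pairs of classes moved in opposite directions past 1.5-fold in the single library of each diet, and none of these differences was tested. Egr1 was higher in pro-/pre-B-like cells (1.42) and lower in eosinophil-like cells (-1.70), but with doublets kept the Egr1 ratio in pro-/pre-B-like cells was -0.30. In eosinophil-like cells the highest cell held 58 Egr1 UMIs in the ND library and 28 in the HFD library. Fosb was higher in conventional-dendritic-like cells (1.19) and lower in immature-neutrophil-like cells (-1.30), where 31 of the 48 ND UMIs and 5 of the 25 HFD UMIs were in 1 of the 4 clusters. Nr4a1 was higher in plasmacytoid-dendritic-like cells (1.12) and lower in basophil/mast-like cells (-0.83), on 21 and 40 UMIs and on 59 and 32 UMIs.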

How the results depend on the processing

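Of 1511 values of the 131 pairs under 12 alternatives, 1336 lay inside the counting interval of the value reported and 169 lay outside it. The other 6 had the opposite sign to a pair called higher or lower. For pairs inside 1.5-fold a change of sign was not counted apart. In basophil/mast-like cells Egr1 was between -1.04 and -0.97, the last for cells of 500 or more genes with a mitochondrial share up to 15%, and at -0.99 with Leiden resolution 2.0. Egr2 there was at -2.11 in cells thinned to 1000 UMIs. In plasma-like cells thinning put Egr1 at -0.67. Egr2 there was at 0.06, counted as a reversal, but only because the HFD count of 0 was raised to 3 UMIs. Thinning reversed Fos in erythroid-like cells (-0.12), keeping doublets reversed Egr1 in pro-/pre-B-like cells (-0.30) and resolution 2.0 reversed Fos there (-0.32). Leaving out cells with transcripts of another lineage, an alternative chosen after seeing the data, reversed Egr2 in NK-like cells (0.30) and Fosb in eosinophil-like cells (0.27). Causes were not tested. Of the 15 pairs that were higher, 4 were at least 2-fold; of the 14 lower, 7 were at least 2-fold and 6 had at least 200 UMIs. After thinning, 6 pairs were lower. The minimum of 50 UMIs was applied to the thinned counts, so pairs could also leave this count for too few UMIs. Egr1 in plasmacytoid-dendritic-like cells ran from -1.30 to -0.04. The other scalings moved the median of a class by at most 0.05. No paired analysis was possible because each diet has 1 library. Depth limits the genes under 50 UMIs in a class, Atf3 and Egr2 most, with 4 classes each above it.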

Other observations

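Among stem/progenitor-like cells a finer cluster of 70 ND and 83 HFD cells had Egr1, Gzmb and Scin among its leading genes and carried 1323 and 1227 Egr1 UMIs, that is 1704 and 1255 CPM (log2 ratio -0.44). They were part of a cluster of 78 ND and 88 HFD cells that Leiden resolution 2.0 named basophil/mast-like, so their class depends on the resolution. In monocyte-like cells the cluster with the highest Nr4a1 had Egr1 at 436 and 308 CPM (-0.50) and Jun at 1587 and 1679.8 CPM (0.08). Nr4a1 UMIs summed over all kept cells were 2850 and 5931, or 26 and 53.6 CPM (1.04), a sum that includes the larger number of monocyte-like cells in the HFD library (1085 and 1833).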
